A study of Sus scrofa with 12 samples.

Results

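VIM, S100A4, DCN, LUM and PDGFRA are 5 genes of fibroblasts and other mesenchymal cells, and they were followed here in stented coronary arteries of pigs. Their probe sets were taken as those whose only gene symbol in the platform's annotation is one of the 5 names. This gave 5 probe sets of the 24123 on the array, 2 for DCN and 1 each for VIM, S100A4 and LUM. No probe set carries PDGFRA as its only symbol, so that gene was not analysed here. The arrays held tissue dissected from the stents 28 days after angioplasty and stenting, in 3 groups of Yorkshire farm pigs, which received a zotarolimus-eluting stent (ZES), a sirolimus-eluting stent (SES) or a bare metal stent (BMS) with no drug. The study's title describes the drug-eluting stents as overlapping. Each group had 4 segments, 2 from each of 2 pigs, making 12 arrays from 6 pigs. Each pig gave 1 segment of its right coronary artery (RCA) and 1 of its left anterior descending artery (LAD), or, in 1 SES pig, of its left circumflex artery (LCX). Segments are named by group and a number, where 1 and 2 share a pig and 3 and 4 share the other. The labels name no dose, age or sex, and every segment held a stent, so the comparisons are between stents and not with an uninjured artery.

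Fibroblasts lie mainly in the adventitia of an artery and, after a stent injures the wall, they and smooth muscle cells contribute to the new tissue that grows over the struts. Vimentin, encoded by VIM, builds the intermediate filaments of mesenchymal cells, and endothelial cells and leukocytes make it too. S100A4 is a calcium-binding protein that acts on cell motility and was named fibroblast-specific protein, although macrophages and lymphocytes also express it. Decorin (DCN) and lumican (LUM) are secreted proteoglycans of the small leucine-rich family that bind collagen fibrils and govern their assembly, and DCN also binds TGF-beta. PDGFRA is a receptor tyrosine kinase for platelet-derived growth factors. Sirolimus blocks the kinase mTOR, and zotarolimus is an analog of it. In whole tissue, fewer cells of a type and less RNA per cell cannot be told apart.

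VIM and S100A4 were lower on all 4 SES arrays than on any BMS array, whereas DCN and LUM overlapped between these groups. Of all probe sets tested, 4.51% lay as VIM and S100A4 did, with every SES array below every BMS array. LUM had its lowest mean with ZES, and S100A4 with SES. None of these differences passed limma's test after Benjamini-Hochberg adjustment over all 16799 probe sets tested. Of the 5 probe sets 4 entered that test, since the second DCN probe set was too dim.

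The share of probe sets brighter than background was 61.0% to 74.5% per array, and background itself was 4.19 to 5.16 with ZES, 4.15 to 5.39 with SES and 5.27 to 5.96 with BMS (log2). Technical controls differed between the stent groups. The hybridisation spike-ins read 14.60 to 15.91 with ZES, 14.62 to 15.60 with SES and 15.74 to 16.52 with BMS (log2). The 3' minus 5' difference of the GAPDH control was 3.44 to 3.91 with ZES, 2.33 to 3.02 with SES and 3.64 to 4.63 with BMS (log2). The 28S ribosomal RNA control stood apart on ZES 2, at 14.1, and on BMS 1, at 14.57, against 6.95 to 10.74 on the other 10 arrays (log2).

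VIM, the filament gene, had log2 signals of 15.94, 16.10, 16.43 and 16.81 on ZES 1 to 4, of 15.60, 15.69, 15.94 and 16.21 on SES 1 to 4, and of 17.61, 16.47, 16.87 and 16.49 on BMS 1 to 4. All SES arrays lay below all BMS arrays, while ZES overlapped both of the other groups. The mean was 15.86 ± 0.27 with SES and 16.86 ± 0.53 with BMS (log2, SD, n = 4 each), a difference of -1.0 ± 0.29 (log2, SE; 95% interval -1.61 to -0.39), which is 2.0-fold lower with SES (adjusted p = 0.115 in limma). With ZES the mean was 16.32 ± 0.39 (log2, SD, n = 4), which differed from BMS by -0.54 ± 0.29 (adjusted p = 0.611) and from SES by 0.46 ± 0.29 (adjusted p = 0.646). The order of the means was therefore BMS, ZES and SES from high to low, in which neighbours overlapped and the ends did not.

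The VIM difference between SES and BMS was -1.02 with median centring (adjusted p = 0.133) and smaller in several other fits. Without BMS 1, which had the highest VIM signal, it was -0.75 (adjusted p = 0.257). Without the pig of SES 1 and 2 it was -0.79 (adjusted p = 0.667). Quantile normalization gave -0.23 (adjusted p = 0.600), a fit that adds the spike-in signal gave -0.29 (adjusted p = 0.935), and a fit that adds the GAPDH measure gave -0.61 (adjusted p = 0.875). The SES and BMS arrays did not overlap in either of these controls, so the controls and the stent type cannot be told apart. Estimated array weights gave -1.03 with adjusted p = 0.0332, in a fit where 673 of all 16799 probe sets passed, against 114 in the main fit.

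**Figure D1:**
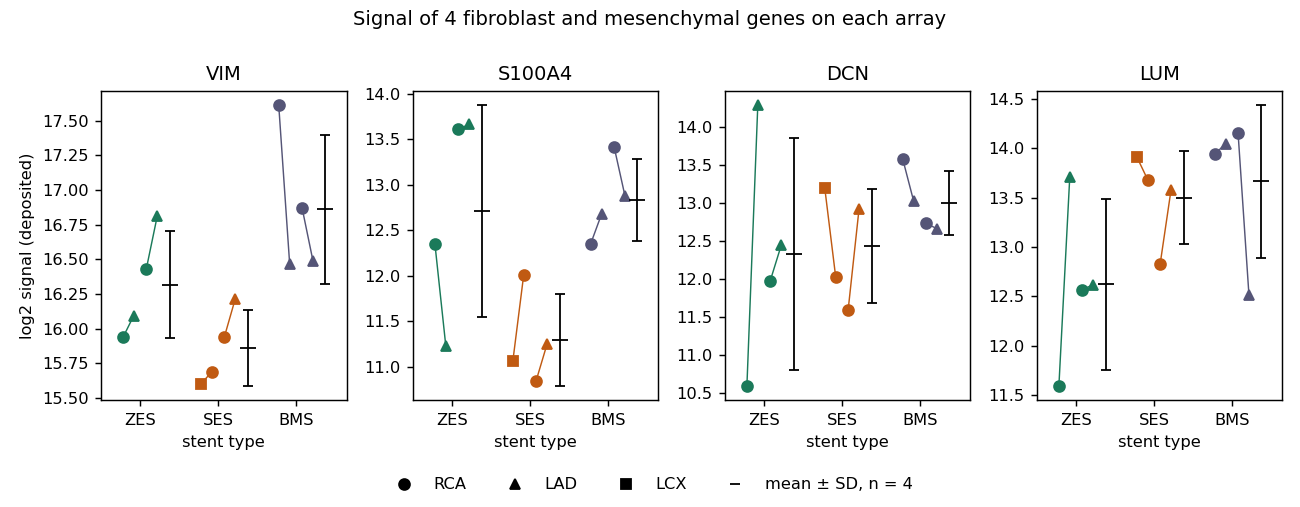
Log2 signals of VIM, S100A4, DCN and LUM on the 12 arrays, by stent type, with 1 point per artery segment, a line joining the 2 segments of a pig, point shape for the artery, and bars for the mean ± SD (n = 4). For VIM and S100A4 the SES points lie below all BMS points, and for DCN the ZES points spread from 10.59 to 14.29.

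S100A4, the calcium-binding protein, had log2 signals of 12.35, 11.23, 13.61 and 13.66 on ZES 1 to 4, of 11.06, 12.01, 10.85 and 11.25 on SES 1 to 4, and of 12.35, 12.68, 13.42 and 12.88 on BMS 1 to 4. The SES arrays again lay below all BMS arrays, and the pigs with ZES differed from each other, with pig means of 11.79 and 13.63 (log2). The group means were 12.71 ± 1.16 with ZES, 11.29 ± 0.51 with SES and 12.83 ± 0.45 with BMS (log2, SD, n = 4 each). SES differed from BMS by -1.54 ± 0.45 (log2, SE; 95% interval -2.49 to -0.59), which is 2.90-fold lower, with adjusted p = 0.117 in limma. ZES differed from SES by 1.42 ± 0.45 (log2, SE; 95% interval 0.47 to 2.37), with adjusted p = 0.256, and 3 of 4 ZES arrays lay above all SES arrays. Against BMS the ZES difference was -0.12 ± 0.45 (log2, SE; adjusted p = 0.961), and it was 0.80 without ZES 1 and 2 and -1.04 without ZES 3 and 4 (adjusted p = 0.630 and adjusted p = 0.293). By means, BMS and ZES were neighbours that did not differ beyond their spread, and SES was lowest.

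The S100A4 difference between ZES and SES differed with the ZES pig that was kept. Without ZES 1 and 2 it was 2.34 (adjusted p = 0.0220) and without ZES 3 and 4 it was 0.50 (adjusted p = 0.671). Adding the spike-in signal to the fit moved the difference between SES and BMS to -0.75 (adjusted p = 0.906). A fit of these 2 groups alone gave adjusted p = 0.0355, and in it 178 of all 16799 probe sets passed, against 114 in the main fit.

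Decorin was read by its brighter probe set at 10.59, 14.29, 11.98 and 12.45 on ZES 1 to 4, at 13.20, 12.03, 11.60 and 12.93 on SES 1 to 4, and at 13.58, 13.03, 12.74 and 12.67 on BMS 1 to 4 (log2). All 3 groups overlapped. ZES held both the lowest and the highest array, which came from the RCA and the LAD of the same pig. Group means were 12.33 ± 1.53 with ZES, 12.44 ± 0.75 with SES and 13.005 ± 0.42 with BMS (log2, SD, n = 4 each). The SD of DCN was larger than that of 84.9% of tested probe sets in ZES and of 18.1% in BMS. Its differences were -0.11 ± 0.55 for ZES against SES, -0.68 ± 0.55 for ZES against BMS and -0.57 ± 0.55 for SES against BMS (log2, SE), with adjusted p = 0.968, adjusted p = 0.746 and adjusted p = 0.677 in limma. The ZES difference from BMS was -0.09 without ZES 1 and -1.35 without ZES 2. The second DCN probe set read 1.38 to 4.07 with ZES, 2.72 to 4.22 with SES and 0 to 5.74 with BMS (log2), and was above background on 0 of 12 arrays.

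Lumican had log2 signals of 11.59, 13.71, 12.57 and 12.62 on ZES 1 to 4, of 13.91, 13.68, 12.83 and 13.58 on SES 1 to 4, and of 13.94, 14.04, 14.16 and 12.51 on BMS 1 to 4. Of the ZES arrays, 3 lay below every SES array, and ZES 2 lay among them. Means were 12.62 ± 0.87 with ZES, 13.50 ± 0.47 with SES and 13.66 ± 0.77 with BMS (log2, SD, n = 4 each). ZES differed from BMS by -1.04 ± 0.42 (log2, SE; 95% interval -1.92 to -0.16), with adjusted p = 0.488 in limma, and by -0.69 without ZES 1 (adjusted p = 0.864). Against SES it differed by -0.88 ± 0.42 (log2, SE), with adjusted p = 0.498. That difference ran from -1.25 to -0.53 with one array left out, the ends being without ZES 2 and without ZES 1, and was -0.043 in the fit that adds the GAPDH measure. SES and BMS, the neighbours at the top of the order, differed by -0.16 ± 0.42 (log2, SE; 95% interval -1.04 to 0.72; adjusted p = 0.894). LUM and S100A4 thus had different groups at the bottom of their order, ZES for LUM and SES for S100A4.

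**Figure D2:**
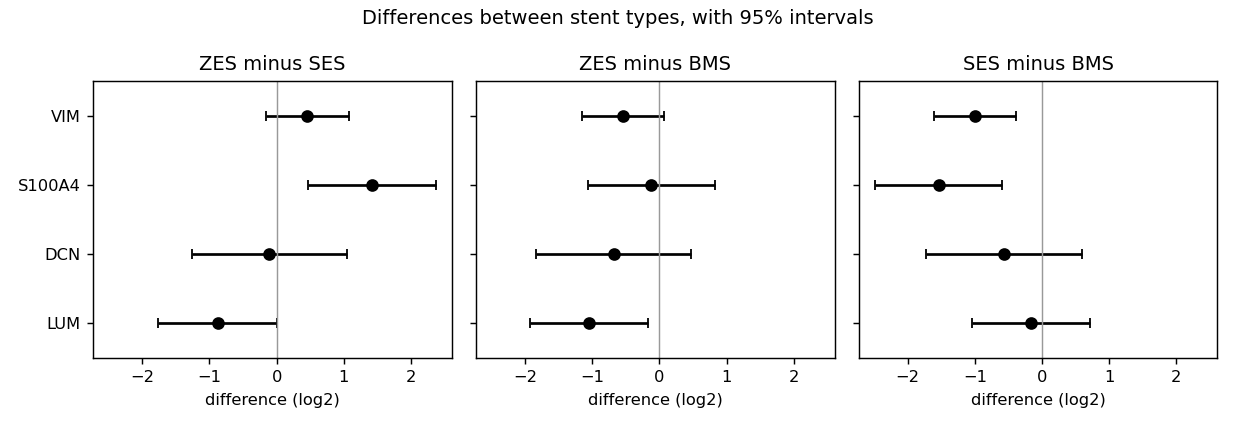
Differences in log2 signal between stent types for VIM, S100A4, DCN and LUM, as estimates with 95% intervals from limma on 12 arrays, unadjusted for the number of probe sets. Intervals that leave out 0 are those of S100A4 in ZES minus SES, LUM in ZES minus BMS, and VIM and S100A4 in SES minus BMS.

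Counted together, 0 of the 4 tested probe sets passed in limma between SES and BMS, against 0.679% of all probe sets tested. That share is 114 probe sets, and single arrays moved that count. Leaving out SES 1, SES 2 or SES 3 left 11, 13 and 0, and dropping SES 4 gave 415. The count was 39, 55 or 175 when BMS 1, BMS 2 or BMS 4 was removed, and 184 once ZES 4 was. For ZES against SES the count was 0 of 4 against 0.0714%, and for ZES against BMS 0 of 4 against 0%. At an unadjusted p under 0.05 there were 2 for SES against BMS, VIM and S100A4, where 14.3% of all probe sets reached that level. There was 1 for ZES against SES, S100A4, against 10.0% of all probe sets, and 1 for ZES against BMS, LUM, against 8.99%. In the F test over the 3 stent types S100A4 had adjusted p = 0.175, VIM adjusted p = 0.224, LUM adjusted p = 0.370 and DCN adjusted p = 0.745, with 0 of 4 past the threshold against 0.345% of all. The median difference of the 4 was -0.78 for SES against BMS and -0.61 for ZES against BMS (log2), beside -0.020 and -0.014 over all probe sets tested. Both comparisons use the same BMS arrays.

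The artery a segment came from was compared within pigs. DCN was higher in the second artery than in the RCA in both ZES pigs, by 3.70 and 0.46, and in both SES pigs, by 1.17 (LCX) and 1.33, and was lower in both BMS pigs, with differences of -0.55 and -0.073 (log2). VIM had LAD minus RCA differences of 0.16 and 0.38 in the ZES pigs and of -0.087 (LCX) and 0.27 in the SES pigs, against -1.14 and -0.38 in the BMS pigs. For LUM the largest of these differences was 2.12, in the ZES pig of segments 1 and 2, and the lowest was -1.64, in the BMS pig of segments 3 and 4. S100A4 went in both directions within ZES (-1.12 and 0.056), SES (-0.95 for LCX and 0.40) and BMS (0.33 and -0.54). Over the 5 pigs with both an LAD and an RCA segment, limma with the pig as a fixed term gave 0.97 ± 0.49 for DCN (log2, SE; adjusted p = 0.730), 0.28 ± 0.41 for LUM (adjusted p = 0.911), -0.14 ± 0.27 for VIM (adjusted p = 0.931) and -0.18 ± 0.28 for S100A4 (adjusted p = 0.919). Without the pig of ZES 1 and 2 the DCN value was 0.29 (adjusted p = 0.927). Past the threshold were 0 of the 4, against 0% of all probe sets, and at an unadjusted p under 0.05 also 0 of the 4, against 6.86% of all.

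**Figure D3:**
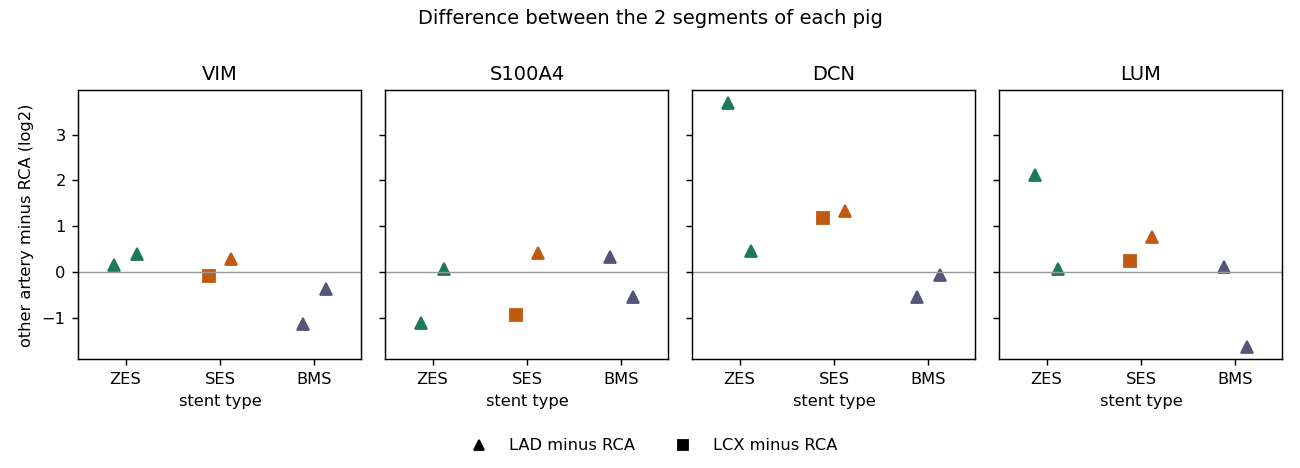
Difference in log2 signal between the second artery (LAD, or LCX in 1 SES pig) and the RCA of the same pig, 1 point per pig, by stent type. DCN is above 0 in the ZES and SES pigs and below 0 in the BMS pigs, and VIM is above 0 in the ZES pigs and below 0 in the BMS pigs.

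The segments of the ZES pig with the widest DCN difference also differed in other markers. The mean of 13 smooth muscle markers was 9.92 on ZES 1 and 12.69 on ZES 2 (log2), the spike-ins read 14.60 and 15.10, and the 28S control 6.95 and 14.1. Their part in the DCN and LUM values was not tested.

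DCN and LUM, which lie next to each other in the RefSeq gene order of the Sscrofa11.1 assembly, varied together from segment to segment. Over the 12 arrays Pearson's r was 0.75 (permutation p = 0.00397, adjusted p = 0.0238 over the 6 pairs of the 4 genes) and Spearman's rho was 0.70 (permutation p = 0.0146, adjusted p = 0.0437). Without ZES 1 and ZES 2, the arrays farthest from the DCN median, r was 0.61 over 10 arrays. With group means subtracted it was 0.79, and over the 6 differences between the segments of a pig it was 0.83. These permutations take arrays as independent, although 2 come from each pig. Many other genes followed DCN or LUM more closely than the pair followed each other. Among 5812 other genes ranked by rho, place 43 for DCN had 0.76 and place 77 for LUM had 0.73. VIM and S100A4 had r = 0.57 (permutation p = 0.0483, adjusted p = 0.145) and rho = 0.75 (permutation p = 0.00711, adjusted p = 0.0427), with r = 0.74 without BMS 1 and SES 1, r = 0.21 with group means subtracted and r = -0.20 over the 6 differences between the segments of a pig. For the other 4 pairs r was between -0.23 and 0.32.

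Genes most like each of the 4 were ranked by Pearson's r over the 12 arrays among 5812 other genes, as a description of arrays that share pigs, scaling and depth of signal. The nearest to DCN was IGF1, insulin-like growth factor 1, with r = 0.94 and still in place 1 with group means subtracted (r = 0.97). IGF1 itself differed by -0.64 ± 0.50 between ZES and SES, by -0.93 ± 0.50 between ZES and BMS and by -0.29 ± 0.50 between SES and BMS (log2, SE; adjusted p = 0.722, adjusted p = 0.608 and adjusted p = 0.831). CAVIN2 (r = 0.90), which shapes caveolae, AKT1S1 (0.90), a subunit of the mTOR complex that sirolimus inhibits, ID3 (0.89), an inhibitor of helix-loop-helix transcription factors, and MFAP5 (0.88), a microfibril protein of fibroblasts, followed. By Spearman's rho IGF1 kept place 1 for DCN, while AKT1S1 and MFAP5 stood in places 37 and 43. LUM was nearest to FAM32A (r = 0.93), LOC100513397 (0.91), IGF1 (0.90), MMP2 (0.90), a gelatinase of mesenchymal cells, and HOXB7 (0.88), a homeobox transcription factor. With group means subtracted these 5 stood between places 6 and 39, and by Spearman's rho IGF1 was in place 77. HOXB7 signals ranged from 2.15 to 6.49, beside array backgrounds of 4.15 to 5.96 (log2).

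VIM had other neighbours. Its list was headed by the ribosomal protein genes RPS21 (r = 0.92), RPL38 (0.91) and RPS20 (0.90), and went on with POLR2B (0.90), a subunit of RNA polymerase II, and UBL4A (0.90), a ubiquitin-like protein. With group means subtracted these 5 stood between places 12 and 76. RPS21, RPL38 and RPS20 signals ranged from 15.24 to 17.48 (log2), in the bright part of the scale that VIM occupies. S100A4 was most like ST3GAL4 (r = 0.87), a sialyltransferase, DYNLT3 (0.87), a dynein light chain, GPX1 (0.85), a glutathione peroxidase, PI4K2A (0.85), a lipid kinase, and CLEC5A (0.84), a receptor of myeloid cells. With group means subtracted ST3GAL4 and DYNLT3 fell to places 52 and 58, and the others stood between places 4 and 14.

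**Figure D4:**
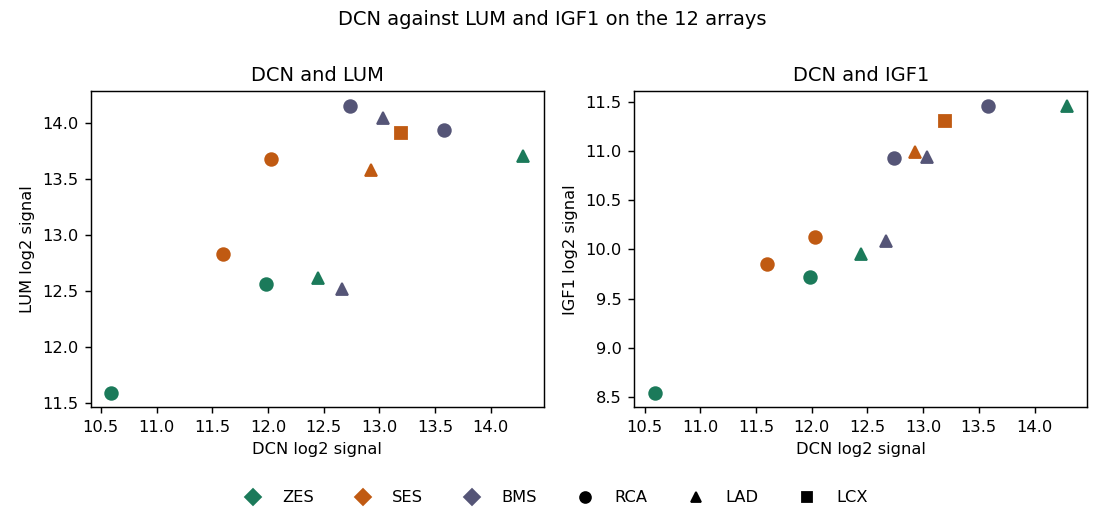
Log2 signal of DCN (horizontal axis) against that of LUM (left) and IGF1 (right) on the 12 arrays, coloured by stent type, with point shape for the artery. In both panels ZES 1, at a DCN signal of 10.59, is the lowest array.

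Among the relatives of DCN and LUM, 3 of 14 other small leucine-rich proteoglycans were measured above the filter, and 0 passed in any comparison, with 1 at an unadjusted p under 0.05 for SES against BMS, a level that 14.3% of all probe sets reached. Biglycan (BGN) averaged 13.96 with SES and 14.96 with BMS (log2, n = 4 each), a difference of -1.0 ± 0.40 (SE, adjusted p = 0.250), and ZES differed from SES by 0.76 ± 0.40 (adjusted p = 0.546). Asporin (ASPN) differed by -0.90 ± 0.50 between SES and BMS (adjusted p = 0.424), and PRELP by -0.57 ± 0.46 between ZES and BMS (adjusted p = 0.742). The median difference of the 3 was 0.46 for ZES against SES, -0.44 for ZES against BMS and -0.90 for SES against BMS (log2).

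In the PDGF family only PDGFRB, the receptor of smooth muscle cells and pericytes, and PDGFRL, a receptor-like protein, were measured of 6 genes beside PDGFRA. PDGFRB averaged 9.74 with ZES, 9.21 with SES and 9.84 with BMS (log2, n = 4 each), and SES differed from BMS by -0.63 ± 0.36 (SE, adjusted p = 0.445). For PDGFRL that difference was -0.89 ± 0.46 (adjusted p = 0.397), beside -0.33 ± 0.77 for its second probe set (adjusted p = 0.881). Neither gene passed in any comparison, and their levels say nothing of PDGFRA.

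Of the other intermediate filament genes 0 of 7 tested passed for SES against BMS (3 at an unadjusted p under 0.05, a level that 14.3% of all probe sets reached), and 4 of 7 were below 0 (median -0.38, log2). Desmin (DES), the filament protein of muscle, averaged 11.69 with ZES, 7.78 with SES and 12.002 with BMS (log2, n = 4 each). Its difference was -4.22 ± 1.22 for SES against BMS (SE, adjusted p = 0.111) and 3.91 ± 1.22 for ZES against SES (adjusted p = 0.250), but its second probe set had 3.29 ± 1.17 for SES against BMS, with the opposite sign. LMNB1, lamin B1 of the nuclear envelope, differed by 1.84 ± 0.65 for SES against BMS (adjusted p = 0.188). The keratins KRT18 and KRT19, filaments of epithelial cells, had too low a signal to be tested. Of the other keratins, KRT10 was above background on all 4 arrays of each group, and KRT8 on 3 with ZES, 1 with SES and 2 with BMS.

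Of the other 8 S100 genes tested 0 passed for SES against BMS (4 at an unadjusted p under 0.05, beside 14.3% of all probe sets), and 5 of 8 were above 0 (median 0.082, log2), where S100A4 was below. The calgranulin S100A8, a protein of neutrophils and monocytes, read 3.97 to 11.77 with ZES and 6.35 to 12.35 with SES, against 1.92 to 7.74 with BMS (log2, n = 4 each). Its adjusted p against BMS was 0.129 for SES and 0.405 for ZES. As 1 of 4 BMS arrays read it above background, no size is given for its differences. S100A12 differed by 3.48 ± 1.29 for SES against BMS (adjusted p = 0.210) and by 2.88 for ZES against BMS, with 3 of 4 BMS arrays above background. S100A10 and S100A11, which are made by many cell types, averaged 12.32 and 13.20 with SES, against 12.28 and 13.27 with BMS (log2).

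The 32 other fibroblast and adventitial genes tested were split, 19 below 0 and 13 above 0 for SES against BMS (median -0.17), 18 and 14 for ZES against BMS (median -0.19), and 10 and 22 for ZES against SES (median 0.20, log2), with 0 past the threshold each time and 7, 2 and 2 at an unadjusted p under 0.05, which 14.3%, 8.99% and 10.0% of all probe sets reached. For LAD against RCA 26 of 32 were above 0 (median 0.41, beside 0.051 over all probe sets tested), again with 0 past the threshold. In that comparison 9 of 9 heart muscle markers (median 1.71) and 13 of 13 smooth muscle markers (median 1.10) were also above 0, and 14 of 16 leukocyte markers were below 0 (median -0.45, log2), and their part in it was not tested. SPARC, a collagen-binding matricellular protein, came nearest to the threshold, at -1.14 ± 0.28 for SES against BMS (log2, SE; adjusted p = 0.0697) and -2.03 ± 0.46 by its second probe set (adjusted p = 0.0549). MGP, an inhibitor of calcification, differed by -1.09 ± 0.32 (adjusted p = 0.123). POSTN, periostin of activated fibroblasts, differed by -1.66 ± 0.54 for ZES against SES (adjusted p = 0.277) but by 2.15 ± 1.27 with its second probe set. Collagen COL1A2 differed by 1.60 ± 0.64 for ZES against SES (adjusted p = 0.402). Among 11 regulators of mesenchymal transition and cadherins 0 passed for SES against BMS, with 3 at an unadjusted p under 0.05 (14.3% of all probe sets). CDH11, cadherin 11 of mesenchymal cells, differed by 1.48 ± 0.38 for SES against BMS (log2, SE; adjusted p = 0.0794), and fibronectin (FN1) by 1.53 ± 0.40 (adjusted p = 0.0825), with -0.81 ± 0.66 by the second FN1 probe set. VIM and S100A4 were below 0 and CDH11 and the brighter FN1 probe set above 0 between SES and BMS, and none of these passed.

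**Figure D5:**
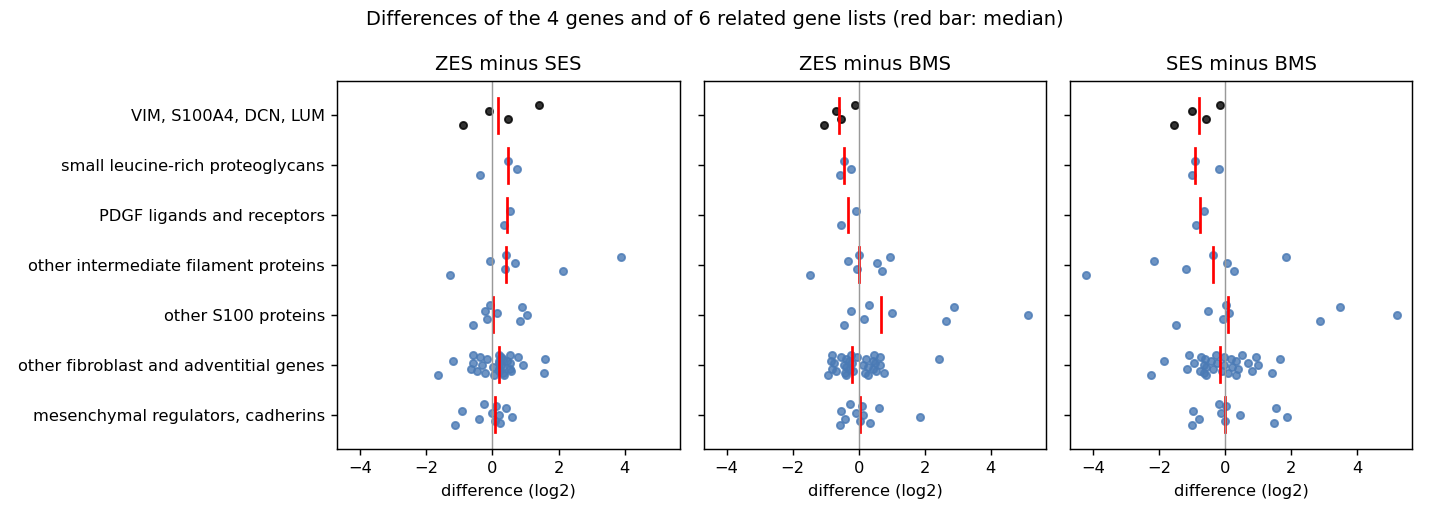
Differences in log2 signal for VIM, S100A4, DCN and LUM (top row) and for 6 related gene lists, 1 point per gene (1 probe set each), with a red bar at the median, in 3 comparisons of stents. For SES minus BMS the 4 genes lie at or below -0.16, while the list of 32 fibroblast and adventitial genes lies on both sides of 0.

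Markers of other cells of the wall were followed as well. All 13 smooth muscle markers tested were below 0 for SES against BMS (median -2.09) and above 0 for ZES against SES (median 1.80, log2), with 0 past the threshold (10 and 9 at an unadjusted p under 0.05, beside 14.3% and 10.0% of all probe sets), and their summed signal was 16.23 to 18.39 with ZES, 15.84 to 17.71 with SES and 17.58 to 18.40 with BMS (log2). CNN1, calponin of contractile cells, differed by -3.15 ± 0.81 for SES against BMS (log2, SE; adjusted p = 0.0804). Of 16 leukocyte markers tested 11 were above 0 for SES against BMS (median 0.74) and 1 passed, beside 0.679% of all probe sets, and the summed signal was 15.00 to 15.88 with ZES, 15.19 to 16.02 with SES and 15.11 to 16.48 with BMS (log2). That gene was CD3E, a T cell marker, which rose at least 4.33-fold (adjusted p = 0.0172), a bound because 0 of 4 BMS arrays read it above background. The CD3E call for SES was lost without SES 3 and in the fits that add the spike-in signal or the GAPDH measure, where 0 probe sets passed. CD3E was also above background on 4 of 4 ZES arrays, with a mean of 6.71 beside 7.62 with SES and 2.73 with BMS (log2). Its adjusted p for ZES against BMS was 0.256 in limma. The leukocyte markers below 0 for SES against BMS, beside the 11 above 0, were PTPRC (-0.45), AIF1 (-0.61), TYROBP (-0.28), FCER1G (-0.79) and the T cell marker CD2 (-0.13, log2). CD3D, another T cell marker, was too dim to be tested. The 11 endothelial markers had summed signals of 11.997 to 12.88 with ZES, 12.19 to 12.86 with SES and 11.98 to 12.84 with BMS (log2), sums in which ERG, with group means of 11.24, 12.13 and 11.85 in the same order, was the brightest gene. Of these 11 markers 9 were above 0 for ZES against BMS (median 0.46) and 9 for SES against BMS (median 0.39, log2), with 0 past the threshold and 3 at an unadjusted p under 0.05 in each, beside 8.99% and 14.3% of all probe sets. Von Willebrand factor (VWF) averaged 8.46 with ZES and 4.76 with BMS (log2, n = 4 each; adjusted p = 0.340), and cadherin CDH5 averaged 6.79 with ZES, 6.81 with SES and 4.93 with BMS (adjusted p = 0.453 for ZES and adjusted p = 0.210 for SES against BMS), each with 2 of 4 BMS arrays above background. ESAM went the other way, at -1.75 ± 0.78 for SES against BMS (log2, SE; adjusted p = 0.307). The markers below 0 were ESAM and ERG for ZES against BMS, and ESAM and NOS3 for SES against BMS. The 9 heart muscle markers ranged more widely, from 10.26 to 14.06 with ZES, 9.32 to 13.37 with SES and 11.89 to 14.08 with BMS (log2). For the 6 adipocyte markers the sums were 11.36 to 13.02 with ZES, 11.71 to 12.80 with SES and 11.80 to 12.42 with BMS (log2), and ADIPOQ, which defines fat cells, was above background on 0 arrays. FABP4, LPL, PPARG and ADIPOR2 of the same list were above background on all 4 arrays of each group. No marker of these lists was at 0 on every array. What part these cells had in the values of VIM, S100A4, DCN and LUM was not tested.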

How the data were processed

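Total RNA from stented coronary segments was measured on 12 Affymetrix porcine arrays. The submitters' processing notes list MAS5 and Affymetrix Expression Console 5.0, and the values the authors deposited were taken as log2 signals, because their antilogs have a trimmed mean of 500.15 to 500.17 on each array. No scaling target or detection call was at hand. Gene symbols are those of the platform annotation, where 10140 of 24123 probe sets have 1 symbol, 157 several and 13826 none.

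After 124 control probe sets and the 30% of the rest with the lowest mean were left out, 16799 were tested with limma 3.58.1 (R 4.3.3, statmod 1.5.0): stent type as fixed term, all 12 arrays, the pig as random block (consensus correlation -0.032), eBayes with a trend, two-sided, Benjamini-Hochberg over all probe sets, threshold 0.05, no pseudocount. The artery fit had the pig as a fixed term. Replicate numbers follow accession order. The background level of an array is the 95th percentile of its 59 controls for sequences not spiked in. A fold given as at least N sets the brighter group's mean against the dimmer group's mean of the higher of background and signal per array. With 2 pigs per group, p-values measure mostly how segments vary. Permutation tests of correlations were two-sided with 100000 draws. The fit was tested on simulated data.

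List genes were represented by their brightest probe set. Named were all probe sets of the 5 genes, list members past the threshold, and the 5 genes most like each of the 4. Further list genes were taken from the 2 with the smallest p per comparison, and not all of those are named here. S100A10, S100A11, KRT8, KRT10, KRT18, KRT19, NOS3, PTPRC, AIF1, TYROBP, CD2, CD3D, ADIPOQ and ADIPOR2, the IGF1 differences and second probe sets were added after values were seen. The 5 genes and all lists were chosen with earlier results of these data known. The number of arrays limits the precision.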

Additional observations from a re-analysis of the deposited data

Results flagged for a closer look

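LUM on BMS 4, from the LAD, read 12.51 (log2), far below the other 3 BMS arrays, of which the nearest was at 13.94. The gap was 0.868 of the range of the group, above the 95% critical value of 0.829 for 4 samples. It was the only such case in 15 groups of 4 values examined, and chance gives about 1 in 20. Without BMS 4 the LUM difference between ZES and BMS was -1.43 (adjusted p = 0.242 in limma).

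The LAD minus RCA difference of DCN was above 0 in both ZES pigs and below 0 in both BMS pigs, in 1 of them by only -0.073 (log2). The ZES effect minus the BMS effect was 2.39 (log2, 95% interval 0.46 to 4.33; adjusted p = 0.544 in limma on 8 arrays). VIM showed the same signs, with 1.03 (log2, 95% interval 0.054 to 2.01; adjusted p = 0.587 in limma). The same fit gave 1.86 for LUM (95% interval 0.16 to 3.55; adjusted p = 0.575), whose BMS pigs went both ways, and -0.43 for S100A4 (adjusted p = 0.850). None of the 4 passed over all probe sets tested, and this fit was added after seeing the data. The share of all probe sets with such signs was not counted. Both arrays of high 28S signal enter this fit, ZES 2 as an LAD array and BMS 1 as an RCA array. In their pigs DCN differed by 3.70 (ZES) and -0.55 (BMS), beside 0.46 and -0.073 in the other ZES and BMS pigs. For VIM these differences were 0.16 and -1.14, beside 0.38 and -0.38 (log2). The part of the 28S signal in them was not tested.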

How the results depend on the processing

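In limma, 0 of 4 probe sets passed in each stent comparison, and with any one array left out the counts stayed at 0 to 0. They moved to 1 for SES against BMS with array weights (VIM), in a fit of 2 groups alone (S100A4) and without the pig of ZES 3 and 4 (S100A4), and to 2 without the pig of ZES 1 and 2 (VIM, adjusted p = 0.0491, and S100A4, adjusted p = 0.0176). In these fits, in the order named, 673, 178, 152 and 360 of all 16799 probe sets passed, against 114 in the main fit. For ZES against SES the count among the 4 moved to 1 (S100A4) with array weights and without the pig of ZES 1 and 2, and for the F test to 1 with each of these. With one array left out, the differences ranged from -1.13 to -0.75 for VIM and from -1.78 to -1.34 for S100A4 in SES against BMS, and from 1.06 to 1.90 for S100A4 in ZES against SES. With the spike-in level, DCN turned to 0.28 for SES against BMS, and for ZES against BMS DCN turned to 0.021, VIM to 0.049 and S100A4 to 0.54; quantile normalization turned VIM to 0.097 there. LUM for SES against BMS turned to 0.16 without the pig of BMS 1 and 2, to 0.13 without that of SES 3 and 4, and ranged from -0.55 to 0.061 with one array left out. S100A4 for ZES against BMS turned to 0.23 with array weights, 0.20 without the pig of BMS 3 and 4, 0.80 without that of ZES 1 and 2 (and was -1.04 without that of ZES 3 and 4), 0.22 without both arrays of high 28S signal and 0.095 on RCA arrays alone (both added after seeing the data), and ranged from -0.48 to 0.36 with one array left out. DCN for ZES against SES turned to 0.064 without the pig of SES 1 and 2 and to 0.0030 without that of ZES 3 and 4, and ranged from -0.78 to 0.48 with one array left out. For LAD against RCA, VIM turned to 0.11 without the pig of BMS 1 and 2, and without that of ZES 1 and 2 LUM turned to -0.18 and S100A4 to 0.061. On RCA arrays alone the difference for ZES against BMS was -1.87 for DCN, -1.97 for LUM and -1.06 for VIM, beside -0.68, -1.04 and -0.54 on all arrays. For SES against BMS it was -1.35 for DCN, -0.79 for LUM, -1.43 for VIM and -1.45 for S100A4, beside -0.57, -0.16, -1.0 and -1.54. None of these passed the threshold. The causes were not tested. Between stent types no paired analysis was possible because each pig carried 1 type; the arteries were compared within pigs.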
